A study of Homo sapiens with 4 samples.

Results

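RNA polymerase I, II and III are the 3 nuclear enzymes that copy DNA into RNA, and the genes of their subunits were followed here in Huh7 cells with and without a guide against METTL16. The genes were those whose symbol in the deposited table starts with POLR1, POLR2 or POLR3 followed by a letter, which gave 30 of the 18806 genes listed, with 5 POLR1, 15 POLR2 and 10 POLR3 genes. The number in a symbol names an enzyme, but some subunits with that number serve the others too. Huh7 is a cell line from a human hepatocellular carcinoma. Cells of a single Cas9-expressing clone were infected with a lentiviral guide and selected with hygromycin B to give stable lines. The guide was either non-targeting (sgNS, 2 libraries, genotype WT in the labels) or directed against METTL16 (sgMETTL16, here METTL16 KO, 2 libraries, genotype METTL16 knockdown in the labels), so the controls also carry Cas9 and a guide. METTL16 is an RNA methyltransferase known to act on U6 snRNA, itself a polymerase III transcript.

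Polymerase I makes the precursor of the large ribosomal RNAs in the nucleolus, polymerase II makes mRNAs and many small nuclear RNAs, and polymerase III makes tRNAs and other short RNAs. Each enzyme has a catalytic core of a pair of very large subunits, an assembly platform on which the core is built, small subunits common to all 3 enzymes, a stalk, and, in polymerases I and III, further subunits that resemble initiation factors of polymerase II. RNA was measured as TPM (transcripts per 1000000), which corrects for transcript length, so that levels of different genes can be set side by side. The 4 libraries each summed to the same TPM total, and their read depth is unknown.

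METTL16 (GRCh38, minus strand of chromosome 17, 2405562 to 2511891) had 26.3 and 25.1 TPM in sgNS against 17.6 and 18.8 TPM in METTL16 KO, with -0.50 (standard error 0.062) as its log2 fold change and 2.4e-05 as its adjusted p by limma. The groups did not overlap. Transcript level does not measure editing of the gene. Hepatocyte markers were high in every library, with ALB between 7437 and 10079 TPM, and of 8 such markers 6 were higher and 2 lower in METTL16 KO, whereas the summed markers of leukocytes, of endothelium and of fibroblasts ran from 1.32 to 5.15 TPM in sgNS and from 1.98 to 3.13 TPM in METTL16 KO. Of the summed TPM, the 100 most abundant genes took 32.6% and 32.8% in sgNS but 28.6% and 28.7% in METTL16 KO, and the median log2 fold change of the 11971 genes tested was 0.16. TPM is a share of a fixed total, so values after median-ratio scaling are also given. This scaling moved all genes by -0.16 on the log2 scale and brought that median to -0.0016. Its values are printed beside those of the subunit genes and, for the other genes named, where they changed a call. Among the hepatocyte markers, the higher call on SERPINA1 was lost after this scaling (0.0044, adjusted p = 0.88).

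Most subunit genes were higher in METTL16 KO in the TPM as deposited, and 15 of the 30 after median-ratio scaling. Of the 30 genes, all of which passed the filter of a mean of at least 1 TPM, 24 were higher (50.1% of all genes tested were), 2 were lower (25.6% of all genes tested were) and 4 did not pass at an adjusted p under 0.05. After median-ratio scaling 15 were higher, against 36.4% of all genes, 3 were lower, against 36.5%, and 12 did not pass. After quantile normalization 17 were higher, against 36.9%, and 3 lower, against 35.5%. The median log2 fold change of the 30 genes was 0.33 beside 0.16 for all genes, and 0.17 beside -0.0016 after median-ratio scaling. Above the median of all genes lay 24 of the 30, above the upper quartile of 0.49 lay 13, and below the lower quartile of -0.17 lay 1. At an unadjusted p under 0.01 and at least a 2-fold change, only POLR1C and POLR2J3 passed upwards (2 of 30, beside 7.69% of all genes) and 0 passed downwards (beside 3.75%). In 28 of the 30 genes the METTL16 KO and sgNS libraries did not overlap, beside 87.4% of all genes tested, and in 26 they lay wholly above, beside 56.8%. In RNA from whole cultures, more transcript per cell and more cells with the transcript cannot be told apart. Summed over the 30 genes, the subunits took 1742 and 1729 TPM in sgNS and 2292 and 2295 TPM in METTL16 KO.

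**Figure D1:**
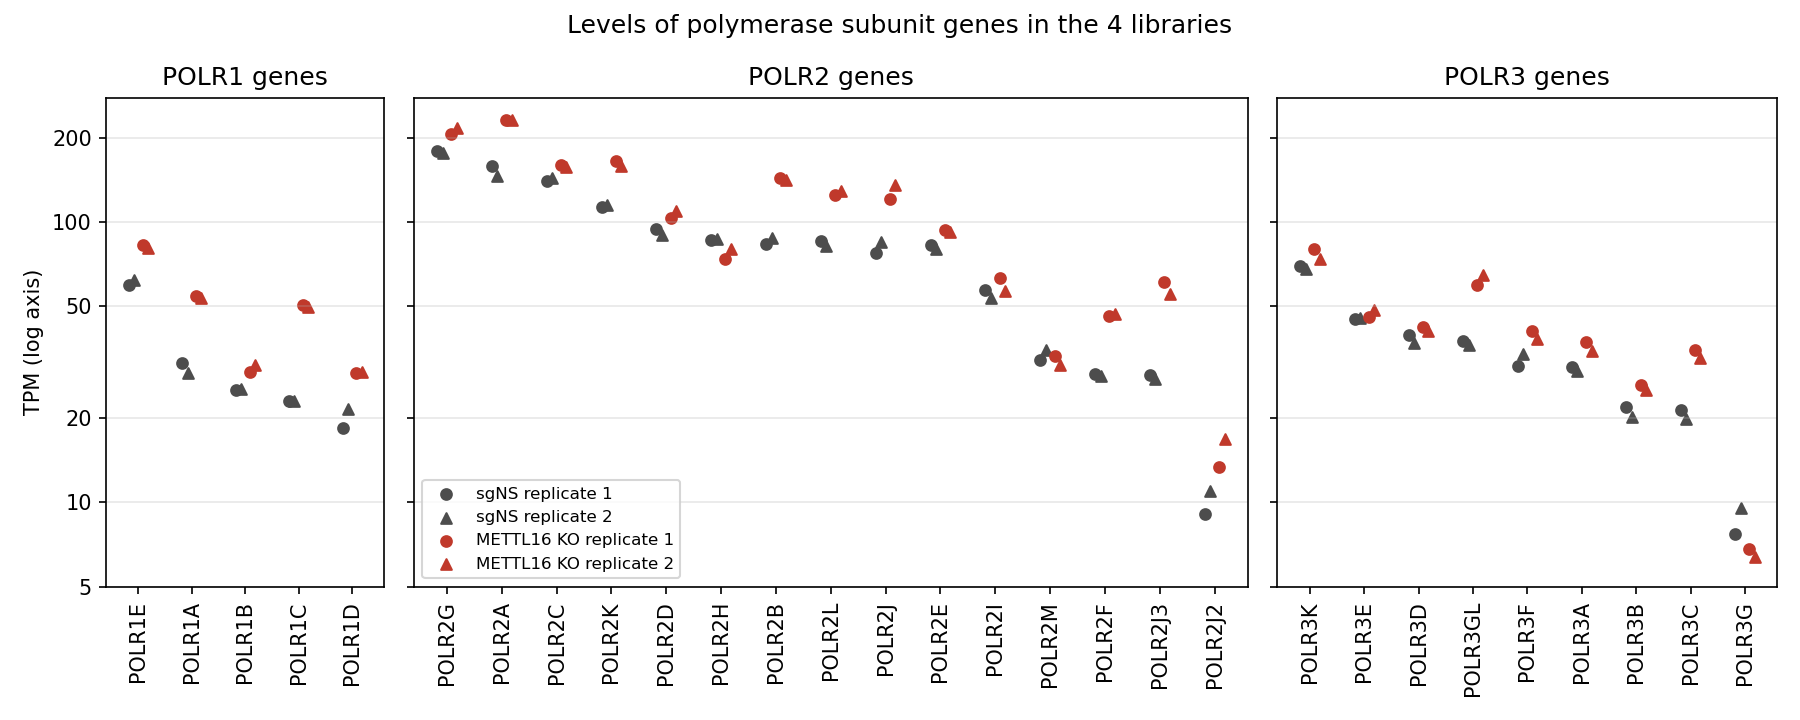
TPM of 29 of the 30 subunit genes on a log axis, with 1 point for each library (grey, sgNS; red, METTL16 KO; circle and triangle, replicates 1 and 2), ordered within each polymerase by the mean of the sgNS libraries. POLR2G and POLR2A were at the top and POLR3G at the bottom in all 4 libraries, and POLR2H and POLR3G had their red points below their grey ones.

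The range of levels among the subunits was wide. POLR2G, a stalk subunit of polymerase II, was highest in sgNS at 179 and 177 TPM, and POLR2A, the largest subunit of polymerase II, came next at 158 and 146 TPM. In METTL16 KO this order turned, with POLR2A at 232 and 231 TPM above POLR2G at 206 and 216 TPM, and in each group the values of these genes did not overlap. The lowest were POLR3G and then POLR2J2 in each of the 4 libraries. From lowest to highest the TPM values spanned 23.2-fold and 18.6-fold in the sgNS libraries and 34.1-fold and 36.1-fold in the METTL16 KO libraries. By enzyme, the summed TPM went from 157 and 161 (sgNS) to 247 and 245 (METTL16 KO) for the POLR1 genes, from 1257 and 1248 to 1642 and 1657 for the POLR2 genes, and from 327 and 320 to 403 and 393 for the POLR3 genes.

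All 5 POLR1 genes were higher, with a median log2 fold change of 0.54, and 4 of them stayed so after median-ratio scaling (median 0.38). POLR1A, the largest and catalytic subunit of polymerase I (minus strand of chromosome 2, 86020216 to 86106155, 34 exons in the GENCODE canonical transcript), had 31.4 and 28.9 TPM in sgNS against 54.5 and 53.5 TPM in METTL16 KO. Its groups were far apart, with 0.84 as its log2 fold change (standard error 0.054, adjusted p = 1.5e-07) and 0.67 after median-ratio scaling. POLR1B, the second-largest subunit and the partner of POLR1A in the active centre, had 25.1 and 25.4 TPM in sgNS against 29.3 and 30.9 TPM in METTL16 KO. It rose much less, by 0.25 on the log2 scale (standard error 0.056, adjusted p = 0.0017), and the call was lost after median-ratio scaling (0.09, adjusted p = 0.18). Within a library the log2 ratio of POLR1A to POLR1B was 0.32 and 0.19 in sgNS and 0.90 and 0.79 in METTL16 KO. A single factor for a whole library, as in median-ratio scaling, leaves such a ratio unchanged, whereas quantile normalization can change it. In TPM, POLR1A was 1.25 and 1.14 times as high as POLR1B in sgNS and 1.86 and 1.73 times as high in METTL16 KO. POLR1E, a subunit that resembles an initiation factor, was the highest of the POLR1 genes at 59.5 and 62.2 TPM in sgNS and rose to 83.0 and 81.1 TPM (log2 fold change 0.43, standard error 0.044, adjusted p = 5.3e-06, 0.27 after median-ratio scaling).

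POLR1C and POLR1D form the assembly platform of polymerase I and also that of polymerase III. POLR1C (plus strand of chromosome 6, 43509702 to 43562419, 9 exons in the canonical transcript) showed the greatest rise of the 30 genes, from 22.9 and 23.0 TPM (sgNS) to 50.7 and 49.8 TPM (METTL16 KO). The replicates lay within about 1 TPM of each other, the log2 fold change was 1.13 (standard error 0.050, adjusted p = 8.2e-09), and 0.96 remained after median-ratio scaling. POLR1D had 18.5 and 21.6 TPM in sgNS against 29.0 and 29.2 TPM in METTL16 KO, or 0.54 on the log2 scale (standard error 0.074, adjusted p = 5.0e-05) and 0.38 after median-ratio scaling. The log2 ratio of POLR1C to POLR1D went from 0.31 and 0.09 to 0.80 and 0.77, so the partners, which bind each other in the enzyme, changed unequally. POLR1C overlaps XPO5, YIPF3 and LRRC73 in the annotation, and 1.52% of the 100-base windows of its transcripts are also found in those of genes listed in the table.

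The promoters of the POLR1 genes with the greatest rises are shown to let their sequences be compared. They come from RefSeq (GRCh38.p14) and run from 250 bases before to 50 bases after the start annotated there. Both windows lie inside the GENCODE spans given above, so these starts differ from the 5′ ends of those whole-gene spans. The starts of the canonical transcripts were not compared. The windows are written 5′ to 3′ on the gene's strand, with matches in capitals to any of 7 motifs searched on both strands. The motifs were the E-box (spelled CACGTG), the GC box (spelled GGGCGG), the NRF1 motif (spelled GCATGCGC), the ETS motif (spelled CCGGAAGT), the CCAAT box, the TATA box (spelled TATAAA) and the YY1 motif (spelled AAGATGGC).
POLR1C, chr6:43516839-43517138, plus strand: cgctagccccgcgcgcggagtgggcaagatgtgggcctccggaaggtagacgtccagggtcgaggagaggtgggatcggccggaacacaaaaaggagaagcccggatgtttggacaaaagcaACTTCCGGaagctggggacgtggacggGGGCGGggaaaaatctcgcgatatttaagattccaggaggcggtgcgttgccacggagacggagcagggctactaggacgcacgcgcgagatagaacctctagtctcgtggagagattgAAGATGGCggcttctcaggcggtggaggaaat
POLR1A, chr2:86105837-86106136, minus strand: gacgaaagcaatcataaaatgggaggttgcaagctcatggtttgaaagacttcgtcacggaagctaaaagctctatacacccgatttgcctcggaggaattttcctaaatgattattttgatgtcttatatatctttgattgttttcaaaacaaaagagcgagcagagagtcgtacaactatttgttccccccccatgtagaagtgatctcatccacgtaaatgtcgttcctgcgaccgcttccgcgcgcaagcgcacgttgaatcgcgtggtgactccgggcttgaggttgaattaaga
POLR1C holds an ETS match, a GC box and, near the end of the window, a YY1 match. POLR1A holds none of the 7 motifs, and its window has 44.7% G and C beside 60.0% in POLR1C. A promoter was given for 21 of the 30 genes, and for the other 9, among them POLR1E, POLR2G, POLR2I, POLR2J, POLR2J3, POLR2K, POLR3D and POLR3G, no promoter was used here under their own symbol. The GC box was found in 16 of the 21 (64.3% of 15843 protein-coding genes with a promoter held it), CCAAT in 5 (42.1%), the ETS motif in 5 (6.97%), the NRF1 motif in 4 (4.89%), the E-box in 3 (10.9%), and the TATA box and YY1 motif in 1 each (12.4% and 4.66%). The ETS matches were in POLR1B, POLR1C, POLR2C, POLR2F and POLR3A, genes whose log2 fold changes ran from 0.17 to 1.13. These are matches of letters and were not tested for binding.

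**Figure D2:**
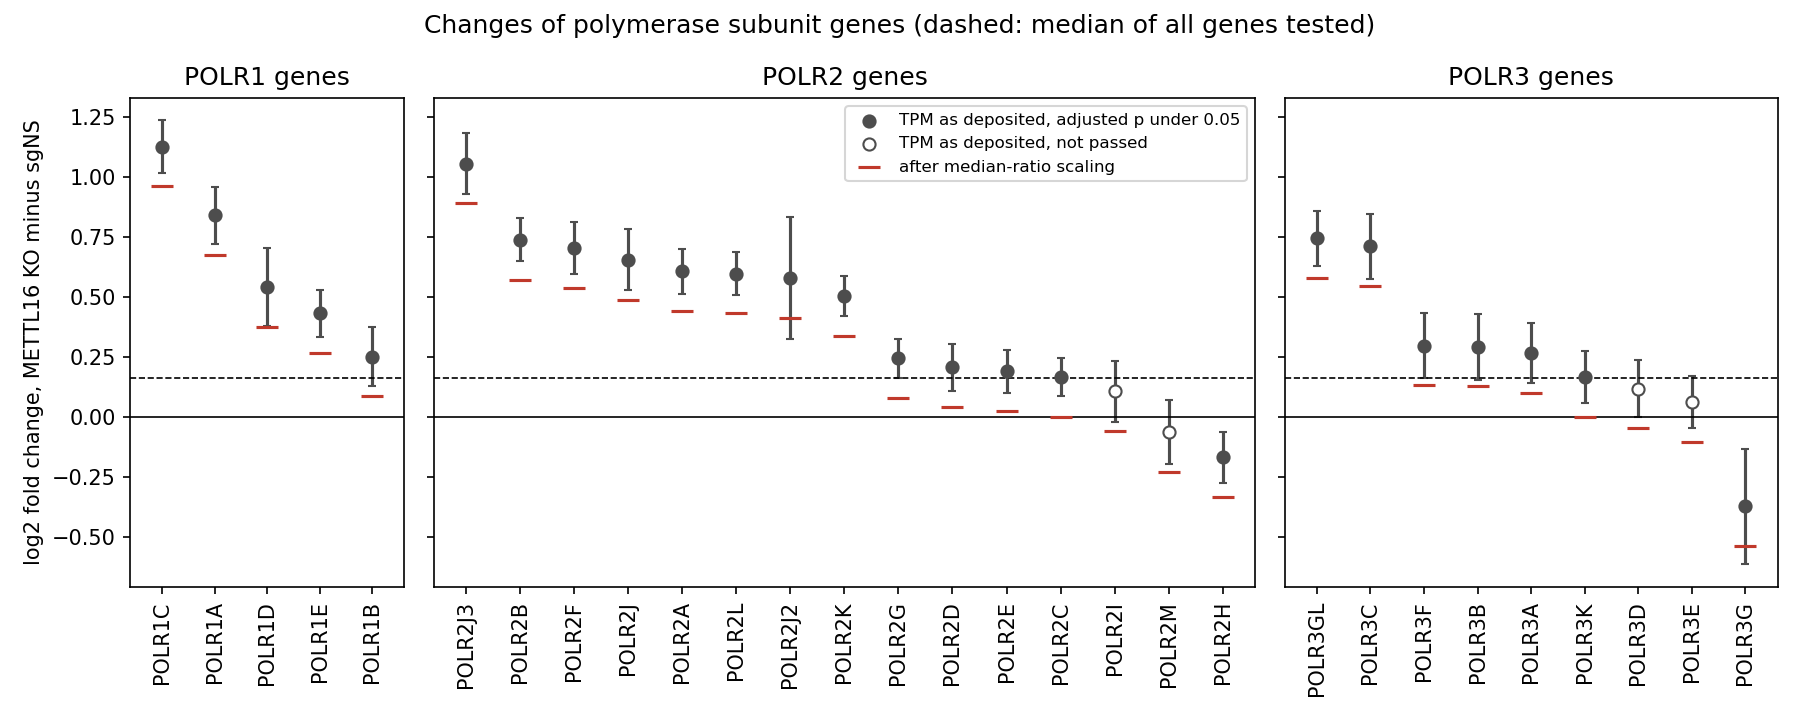
Log2 fold change of 29 of the 30 genes, METTL16 KO minus sgNS, on log2(TPM + 0.1), with its 95% confidence interval from limma (filled, adjusted p under 0.05; open, not passed), and the value after median-ratio scaling as a red bar. The dashed line is the median of all genes tested, 0.16. POLR1C and POLR2J3 stood highest and POLR3G lowest, and after median-ratio scaling the values of POLR2C, POLR2I, POLR3D, POLR3E and POLR3K moved from above to below 0.

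The catalytic cores of polymerases II and III rose as well, by different amounts. POLR2A, whose long C-terminal tail carries the phosphorylation marks of the transcription cycle (plus strand of chromosome 17, 7484366 to 7514616), rose from 158 and 146 TPM to 232 and 231 TPM, with 0.61 as its log2 fold change (standard error 0.042, adjusted p = 2.7e-07). POLR2B, its partner in the active centre, rose from 83.4 and 87.5 TPM to 144 and 141 TPM, with 0.74 as its log2 fold change (standard error 0.041, adjusted p = 4.5e-08). In the core of polymerase III, POLR3A rose from 30.3 and 29.4 TPM to 37.3 and 34.6 TPM (log2 fold change 0.27, standard error 0.056, adjusted p = 0.0013). POLR3B rose from 21.8 and 20.2 TPM to 26.2 and 25.2 TPM (0.29, standard error 0.062, adjusted p = 0.0013). The POLR3 calls were lost after median-ratio scaling, where POLR3A had 0.10 (adjusted p = 0.12) and POLR3B 0.13 (adjusted p = 0.076), whereas POLR2A kept 0.44 and POLR2B 0.57. The log2 ratio of POLR3A to POLR3B was 0.47 and 0.54 in sgNS and 0.51 and 0.46 in METTL16 KO, so that the groups overlapped. That of POLR2A to POLR2B was 0.92 and 0.74 in sgNS and 0.69 and 0.71 in METTL16 KO. Of the 3 core pairs, that of polymerase I thus showed the greatest shift in its ratio, 0.59 on the log2 scale beside -0.13 and -0.03, and the difference between these shifts was not tested.

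POLR2E, POLR2F, POLR2H, POLR2K and POLR2L are built into all 3 polymerases. Of these 5 genes, 4 were higher (50.1% of all genes tested were) and POLR2H was lower (25.6% were). POLR2F rose from 28.8 and 28.2 TPM to 46.1 and 46.9 TPM (log2 fold change 0.70, standard error 0.049, adjusted p = 2.9e-07). POLR2L, a small zinc-binding subunit, rose from 85.5 and 82.1 TPM to 125 and 129 TPM (0.60, standard error 0.041, adjusted p = 2.3e-07), and POLR2K, likewise small and zinc-binding, from 113 and 115 TPM to 165 and 159 TPM (0.50, standard error 0.038, adjusted p = 5.1e-07). After median-ratio scaling these genes had 0.54 (POLR2F), 0.43 (POLR2L) and 0.34 (POLR2K), and each still passed. POLR2E rose only from 82.7 and 80.1 TPM to 93.5 and 92.1 TPM (0.19, standard error 0.041, adjusted p = 0.0014), and after median-ratio scaling its value was 0.02 (adjusted p = 0.60).

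POLR2H (plus strand of chromosome 3, 184361710 to 184368596) went the other way, from 86.1 and 87.1 TPM (sgNS) to 73.7 and 80.5 TPM (METTL16 KO). Its sgNS libraries lay close together and above both METTL16 KO libraries, of which replicate 1 was the lower. The log2 fold change was -0.17 (standard error 0.049, adjusted p = 0.0085) and -0.33 after median-ratio scaling (adjusted p = 0.00015). The call was lost without METTL16 KO replicate 1 (-0.10, adjusted p = 0.15) and in limma without the mean-variance trend (adjusted p = 0.061). POLR2H, POLR2L and POLR2E were at like TPM in sgNS, with log2 ratios of POLR2L to POLR2H of -0.01 and -0.08, and of POLR2E to POLR2H of -0.06 and -0.12. In METTL16 KO the ratios were 0.76 and 0.68 for POLR2L and 0.34 and 0.19 for POLR2E, and that of POLR2K to POLR2H went from 0.39 and 0.40 to 1.16 and 0.98. With 2 libraries a group, an exact permutation test of such a ratio cannot give a p below 0.333, so the ratios are given as values.

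**Figure D3:**
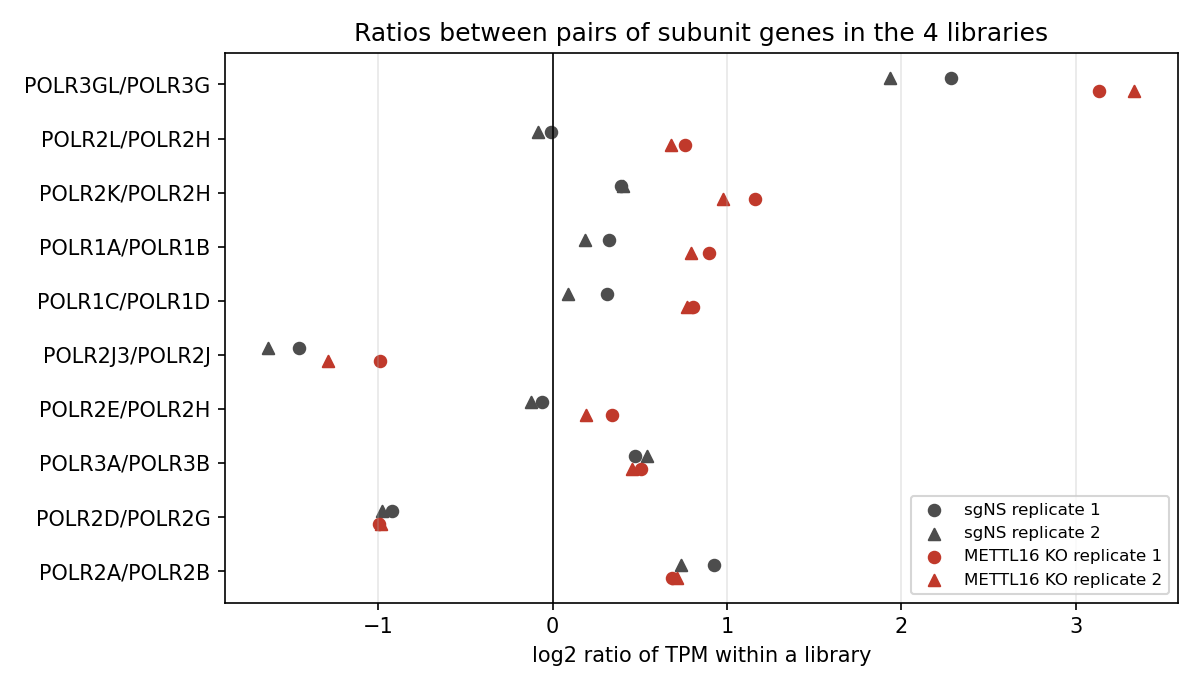
Log2 ratio of the TPM of 2 subunit genes within a library, for 10 pairs, ordered by the shift from sgNS (grey) to METTL16 KO (red), with circles for replicate 1 and triangles for replicate 2. The ratio of POLR3GL to POLR3G moved most, from 2.28 and 1.94 to 3.13 and 3.34, while those of POLR3A to POLR3B overlapped between the groups.

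Among the subunits particular to polymerase II, POLR2C and POLR2J form the assembly platform, POLR2D and POLR2G the stalk, and POLR2I a zinc-binding arm that resembles a transcript cleavage factor. POLR2J rose from 77.9 and 85.0 TPM to 121 and 135 TPM (log2 fold change 0.66, standard error 0.057, adjusted p = 1.6e-06, 0.49 after median-ratio scaling). Its platform partner POLR2C rose only from 141 and 143 TPM to 160.4 and 158 TPM (0.17, standard error 0.036, adjusted p = 0.0014), a change close to the all-gene median of 0.16 that turned to -0.00047 after median-ratio scaling. The stalk genes had close log2 fold changes. POLR2D went from 94.6 and 89.8 TPM to 104 and 109 TPM (0.21, adjusted p = 0.0015) and POLR2G from 179 and 177 TPM to 206 and 216 TPM (0.24, adjusted p = 1.0e-04), with log2 ratios of POLR2D to POLR2G between -0.99 and -0.92 in all libraries. After median-ratio scaling neither stalk gene passed (0.04, adjusted p = 0.43, and 0.08, adjusted p = 0.078).

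POLR2I and POLR2M did not pass the test, and their groups overlapped. POLR2I had 57.5 and 53.7 TPM in sgNS against 62.9 and 56.9 TPM in METTL16 KO, with a log2 fold change of 0.11 (95% confidence interval -0.02 to 0.23, adjusted p = 0.11) that turned to -0.06 after median-ratio scaling (adjusted p = 0.37). POLR2M, which encodes a protein bound to polymerase II and not a core subunit, had 32.3 and 34.9 TPM in sgNS against 33.4 and 31.0 TPM in METTL16 KO (-0.06, 95% confidence interval -0.20 to 0.07, adjusted p = 0.36). Set against the other genes POLR2M was low, and it was called lower after median-ratio scaling (-0.23, adjusted p = 0.0064) and after quantile normalization (-0.22, adjusted p = 0.0096). POLR2M overlaps GCOM1, and 16.4% of the 100-base windows of its transcripts also occur in that gene.

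POLR2J2 and POLR2J3 are copies of POLR2J that lie near it on chromosome 7. POLR2J3 rose from 28.4 and 27.5 TPM to 61.2 and 55.3 TPM, the second-greatest rise of the 30 genes (log2 fold change 1.06, standard error 0.058, adjusted p = 4.3e-08, 0.89 after median-ratio scaling). POLR2J2 had 9.10 and 11 TPM in sgNS against 13.4 and 16.8 TPM in METTL16 KO (0.58, standard error 0.11, adjusted p = 0.00082, 0.41 after median-ratio scaling). On the log2 scale this standard error was wider than those of POLR2J (0.057) and POLR2J3 (0.058), and the groups of POLR2J2 did not overlap. Reads of the copies are hard to tell apart. Of the 100-base windows of POLR2J2 transcripts, about the length of 1 read, 80.1% are found in transcripts of other genes in the table. These genes are POLR2J3 and POLR2J. For POLR2J the share is 19.8%. For POLR2J3 it is 25%, which also takes in SPDYE2 and SPDYE2B, and 16.7% with POLR2J2 alone. The split of the TPM among the 3 genes is therefore uncertain. Their sum was 115 and 123 TPM in sgNS and 196 and 207 TPM in METTL16 KO. Without POLR2J2 and POLR2J3 the median log2 fold change of the other 28 genes was 0.30. Of these, 22 were higher and 2 lower, beside 50.1% and 25.6% of all genes tested.

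The likeness of the copies extends to their promoters, which are shown for that reason. No promoter was listed for POLR2J3 alone, and the read-through entry POLR2J3-UPK3BL2 takes its place. Capitals again mark the motifs.
POLR2J2, chr7:102671614-102671913, minus strand: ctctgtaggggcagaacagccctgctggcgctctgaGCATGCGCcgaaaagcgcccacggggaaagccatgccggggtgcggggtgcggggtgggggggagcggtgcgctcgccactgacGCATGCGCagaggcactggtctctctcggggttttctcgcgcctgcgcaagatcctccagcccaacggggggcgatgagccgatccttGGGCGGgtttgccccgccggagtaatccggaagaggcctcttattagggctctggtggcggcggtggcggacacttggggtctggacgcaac
POLR2J3-UPK3BL2, chr7:102572534-102572833, minus strand: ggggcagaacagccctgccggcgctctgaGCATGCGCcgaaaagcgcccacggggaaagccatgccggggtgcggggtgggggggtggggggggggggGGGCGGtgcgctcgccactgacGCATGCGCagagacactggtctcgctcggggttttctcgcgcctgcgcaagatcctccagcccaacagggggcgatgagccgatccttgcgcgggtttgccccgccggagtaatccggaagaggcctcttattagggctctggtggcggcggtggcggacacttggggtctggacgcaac
Each window holds 2 NRF1 matches and 1 GC box, the GC box at different places, and over 300 bases 1 turns into the other by 21 single-base edits.

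Of the 10 POLR3 genes, 7 were higher (50.1% of all genes tested were) and 1 lower (25.6%). Their median log2 fold change was 0.28 beside 0.54 for POLR1 and 0.50 for POLR2 genes, a difference that was not tested. After median-ratio scaling 3 were higher, against 36.4% of all genes, and 1 lower, against 36.5%, with a median of 0.11. POLR3C and POLR3GL were among the 3 that stayed higher. POLR3C, part of the module that opens the promoter together with POLR3F and POLR3G or POLR3GL, rose from 21.4 and 19.9 TPM to 34.8 and 32.8 TPM (log2 fold change 0.71, standard error 0.061, adjusted p = 1.3e-06, 0.55 after median-ratio scaling). Its partner POLR3F went from 30.8 and 33.8 TPM to 41.0 and 38.3 TPM (0.30, standard error 0.061, adjusted p = 0.0011), a call lost after median-ratio scaling (0.13, adjusted p = 0.079), and the log2 ratio of POLR3C to POLR3F rose from -0.52 and -0.77 to -0.24 and -0.22.

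POLR3D and POLR3E, which pair with each other in the enzyme, did not pass. POLR3D had 39.7 and 37.0 TPM in sgNS against 42.3 and 40.9 TPM in METTL16 KO (0.12, adjusted p = 0.065), and passed without sgNS replicate 1 (0.17, adjusted p = 0.018). POLR3E had 45.0 and 45.3 TPM in sgNS against 45.8 and 48.5 TPM in METTL16 KO (0.06, 95% confidence interval -0.05 to 0.17, adjusted p = 0.27). In neither gene did the groups overlap, although the gaps were small. After median-ratio scaling POLR3D had -0.05 and POLR3E -0.10, and neither passed. POLR3K, a zinc-binding subunit with a part in termination, rose from 69.7 and 67.9 TPM to 80.4 and 74.0 TPM (0.17, standard error 0.049, adjusted p = 0.0099). That call was lost without METTL16 KO replicate 1 (adjusted p = 0.16) and without the trend (adjusted p = 0.061), and after median-ratio scaling the value was -0.00029.

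POLR3G and POLR3GL encode alternative forms of 1 subunit, so that a polymerase III holds either POLR3G, the form known from stem and tumour cells, or POLR3GL, the form of most differentiated tissues. POLR3GL (plus strand of chromosome 1, 145964690 to 145978848) rose from 37.6 and 36.5 TPM (sgNS) to 59.8 and 64.6 TPM (METTL16 KO), with 0.74 as its log2 fold change (standard error 0.052, adjusted p = 2.7e-07) and 0.58 after median-ratio scaling. POLR3G (plus strand of chromosome 5, 90471748 to 90514557), the lowest of the 30 genes, had 7.71 and 9.53 TPM in sgNS against 6.81 and 6.39 TPM in METTL16 KO. Its groups did not overlap but the sgNS libraries were apart, and the log2 fold change was -0.37 (standard error 0.11, adjusted p = 0.0092) and -0.54 after median-ratio scaling (adjusted p = 0.0013). The call on POLR3G was lost without sgNS replicate 2 (-0.22, adjusted p = 0.096), without METTL16 KO replicate 2 (-0.33, adjusted p = 0.085) and when all genes above 0 were fitted (adjusted p = 0.058). POLR3G made up 17.0% and 20.7% of the summed TPM of the forms in sgNS and 10.2% and 9.01% in METTL16 KO. The ratio of POLR3GL to POLR3G was 4.87 and 3.83 in sgNS and 8.78 and 10.1 in METTL16 KO, a shift of 1.12 on the log2 scale, while the sum of the forms went from 45.3 and 46.1 TPM to 66.6 and 70.9 TPM.

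The promoter of POLR3GL is shown as that of the form that rose, and none was used here for POLR3G.
POLR3GL, chr1:145964440-145964739, plus strand: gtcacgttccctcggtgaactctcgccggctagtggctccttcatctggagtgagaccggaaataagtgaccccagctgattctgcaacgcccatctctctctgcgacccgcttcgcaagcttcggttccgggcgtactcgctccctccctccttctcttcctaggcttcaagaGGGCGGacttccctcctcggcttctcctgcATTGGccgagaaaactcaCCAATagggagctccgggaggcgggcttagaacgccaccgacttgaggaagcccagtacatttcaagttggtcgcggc
It holds a GC box and a pair of CCAAT matches, 1 on each strand.

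Other subunits of polymerases I and III are listed under older symbols and lie outside the 30 genes. Values of 4 such genes were used here, and all 4 were higher, beside 50.1% of all genes tested. CD3EAP, TWISTNB and ZNRD1, subunits of polymerase I, had log2 fold changes of 0.35, 0.34 and 0.48, with adjusted p of 0.019, 0.00021 and 8.1e-06. After median-ratio scaling they had 0.19, 0.18 and 0.32, and the call on CD3EAP was lost (adjusted p = 0.17). CRCP, a stalk subunit of polymerase III, rose from 47.3 and 42.9 TPM to 79.6 and 81.7 TPM (0.84, standard error 0.053, adjusted p = 1.3e-07, 0.67 after median-ratio scaling).

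The factors that work with the polymerases were then counted from lists. Their counts are set beside 50.1% of all genes higher and 25.6% lower. These counts are for the TPM as deposited, and TBP is counted in the lists of polymerases I, II and III. After median-ratio scaling, where 36.4% of all genes were higher and 36.5% lower, each list lost higher calls and gained lower ones. Of 6 factors of polymerase I, most of them for initiation, 5 were higher, with a median log2 fold change of 0.37. TAF1B did not pass (-0.10, adjusted p = 0.27), but was called lower after median-ratio scaling (-0.26, adjusted p = 0.011). TAF1A, TAF1C and TBP, parts of the selectivity complex at the ribosomal RNA promoter, had the greatest rises (0.47, 0.45 and 0.39). Of 18 general initiation factors of polymerase II, 11 were higher and 2 lower, with a median of 0.28. GTF2H1, a subunit of TFIIH, rose from 24.5 and 25.5 TPM to 41.4 and 43.3 TPM (0.76, adjusted p = 3.0e-07), followed by GTF2B (0.64) and GTF2E1 (0.59). The lower ones were CCNH, the cyclin of the TFIIH kinase (-0.41, adjusted p = 2.4e-05), and GTF2E2, the partner of GTF2E1 in TFIIE (-0.35, adjusted p = 3.4e-05).

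Elongation factors and regulators of the POLR2A tail were mixed. Of 31 genes, 17 were higher, 9 lower and 5 did not pass, beside 50.1% of all genes higher and 25.6% lower. The median was 0.15 beside 0.16 for all genes. More of the 31 genes were lower than higher after median-ratio scaling, with a median of -0.01. The negative elongation factor NELF, which holds polymerase II near the promoter, showed unequal change among its subunits. NELFB fell from 119 and 111 TPM to 43.6 and 44.1 TPM (log2 fold change -1.39, standard error 0.047, adjusted p = 1.1e-09), and NELFCD from 96.6 and 99.5 TPM to 56.5 and 56.5 TPM (-0.79, adjusted p = 3.0e-08). NELFE had 113 and 116 TPM in sgNS against 113 and 117 TPM in METTL16 KO (0.01, adjusted p = 0.89, but called lower at -0.16 with adjusted p = 0.0048 after median-ratio scaling), and NELFA had 0.11 (adjusted p = 0.048), which turned to -0.06 after median-ratio scaling and -0.02 after quantile normalization. TCEA2, a low transcript cleavage factor, had the greatest fall of the list (-1.48, adjusted p = 1.2e-06). The greatest rises were in CCNK, a cyclin of tail kinases (0.62), the elongation factor ELL (0.60) and SUPT4H1, a part of DSIF (0.59).

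Of 18 initiation factors of polymerase III and its regulators, 14 were higher and 2 lower, with a median of 0.30. SNAPC1, a subunit of the complex that binds snRNA promoters, rose from 6.02 and 6.40 TPM to 13.9 and 12.9 TPM (1.10, standard error 0.084, adjusted p = 5.4e-07), while SNAPC3 of the same complex was lower (-0.57, adjusted p = 3.9e-05). GTF3C6 (0.61) and GTF3A (0.47), which bind tRNA and small ribosomal RNA genes, were higher, and GTF3C2 of the same TFIIIC complex as GTF3C6 fell from 45.0 and 40.6 TPM to 24.6 and 24.4 TPM (-0.80, adjusted p = 4.5e-07). MAF1, the repressor of polymerase III, had a log2 fold change of 0.29 (adjusted p = 0.00073), and that call was lost after median-ratio scaling (0.12, adjusted p = 0.078). Among 17 factors known for assembly, import or tail binding of polymerases, 12 were higher and 3 lower (median 0.18), with SLC7A6OS (0.80), PDRG1 (0.72) and ZNHIT2 (0.66) at the top and RPRD1A (-0.70), PIH1D1 (-0.17) and URI1 (-0.11) lower. The mitochondrial RNA polymerase POLRMT rose by 0.23 (adjusted p = 0.023), a call lost after median-ratio scaling (0.07, adjusted p = 0.47), and of 6 mitochondrial transcription genes 5 were higher, with a median of 0.32. After median-ratio scaling the medians of these 6 lists, in the order given, were 0.20, 0.12, -0.01, 0.14, 0.02 and 0.15.

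**Figure D4:**
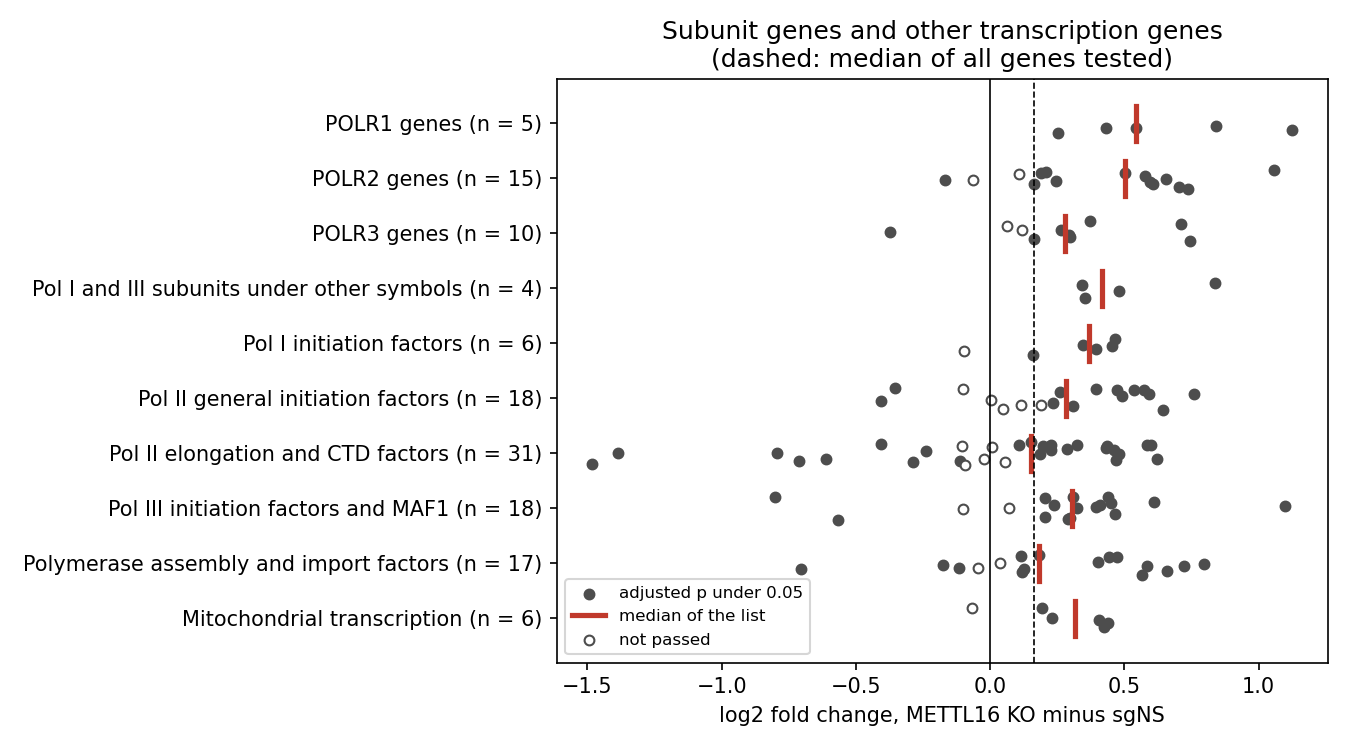
Log2 fold change of each tested gene, METTL16 KO minus sgNS on log2(TPM + 0.1), in the 3 groups of subunit genes and in 7 lists of other transcription genes (filled, adjusted p under 0.05; open, not passed), with the median of each list as a red line and that of all genes tested, 0.16, dashed. POLR1 and POLR2 genes had the highest medians, 0.54 and 0.50, elongation factors spread from -1.48 to 0.62, and all medians dropped by about 0.16 after median-ratio scaling.

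Among the places in the enzyme that hold at least 4 of the genes, the 4 platform genes (POLR1C, POLR1D, POLR2C and POLR2J) had a median log2 fold change of 0.60, the 5 common subunits 0.50, the 6 core genes 0.45, and the 7 subunits that resemble initiation factors 0.30. After median-ratio scaling these medians were 0.43, 0.34, 0.29 and 0.13. Before scaling, POLR2D and POLR2G in the stalk (0.21 and 0.24) and the zinc-binding POLR2I and POLR3K (0.11 and 0.17) lay lower than these medians. Their places hold fewer genes. Low values were not shared by all stalk genes, as CRCP, a stalk subunit of polymerase III outside the POLR genes, had 0.84. Differences between these small groups were not tested.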

How the data were processed

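RNA-seq libraries were made with a stranded mRNA kit and sequenced from both ends, and the labels also name ribosomal RNA depletion. By the paper and the labels, Cutadapt (trimming), STAR (alignment to GRCh38) and RSEM (quantification) were used, with versions not given in the sources used here. The authors deposited 1 table of TPM values per gene symbol, which the paper calls RPKM although every library sums to 1000000. TPM keeps no read counts, so no count test and no counting error were possible.

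The groups were compared in R 4.3.3 with limma 3.58.1 (eBayes with trend, two-sided) on log2(TPM + 0.1) over 11971 genes whose mean TPM reached 1, with Benjamini-Hochberg adjustment over all of them and a threshold of 0.05. This scale understates the fold change of low genes. Whether replicates came from separate infections is not stated, so p-values measure only the spread between these libraries. The model was tested on simulated data. Named were METTL16, 29 of the 30 members (the values of 1 POLR3 gene are not reported here, although counts, sums and medians include it) and, of other lists, up to 3 genes a direction with the largest change among those passing, plus genes picked after their values were seen (NELFA, NELFE, MAF1, POLRMT, TAF1B and the older-symbol subunits). The members and the lists were chosen with earlier results of these data known. Positions and shared 100-base windows are from GENCODE release 44 on GRCh38, computed with Python 3.11.15, and promoters from RefSeq. UBTF, RRN3, ELOA, ELOB and ELOC were not analysed here. Alternatives were 2 pseudocounts, 2 filters, 2 scalings, a replicate block, no trend, a fold threshold and each library left out.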

Additional observations from a re-analysis of the deposited data

How the results depend on the processing

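With 2 libraries a group, all p-values rest on limma's spread shared over genes, and depth is unknown. Of the 30 subunit genes, 17 kept their call (higher, lower or not passed) and 25 their sign under the 12 alternatives at an adjusted p under 0.05, and 4 kept their call when the fold threshold was added. The 24 higher and 2 lower were 15 and 3 after median-ratio scaling and 17 and 3 after quantile normalization. The POLR2 genes lower went from 1 to 2 under either scaling, and the POLR3 genes higher from 7 to 3. Values that turned sign were those of POLR2C (-0.00047 by median-ratio), POLR2I (-0.058 and -0.011 by median-ratio and quantile), POLR3D (-0.047 and -0.030), POLR3E (-0.10 and -0.070) and POLR3K (-0.00029 by median-ratio). Median-ratio scaling shifts every gene by about -0.16 by its construction. Across all genes, the share of calls that were higher was 66.2% as deposited, 49.9% after median-ratio scaling and 51.0% after quantile normalization. With all genes above 0 fitted, 1 member was lower and 0 POLR3 genes were, and without the trend 1 member was lower and 0 POLR2 genes were. The cause was not tested. With an unadjusted p under 0.01 and a 2-fold change, 2 members were higher (1 POLR1, 1 POLR2 and 0 POLR3) and 0 lower, and over all genes 920 were higher and 449 lower in place of 5999 and 3065. Leaving out each library in turn gave 23 to 25 members higher and 1 to 2 lower, with 0 to 1 POLR2 and 0 to 1 POLR3 genes lower. POLR2H was lost without METTL16 KO replicate 1, and POLR3G without sgNS replicate 2 or METTL16 KO replicate 2. With the replicate number as a block, 24 members were higher and 2 lower, each of the 30 calls as without it. Same-numbered libraries did not deviate together (r = -0.04 over the genes tested), so the numbers were not taken as a pairing. METTL16 stayed lower throughout, from -0.68 to -0.45.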
